A study of Mus musculus with 20 samples.

Results

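The Ly6 surface antigen family was followed here through 6 genes, Ly6a, Ly6c1, Ly6c2, Ly6d, Ly6e and Ly6i, in 2 expression tables of a mouse mammary cancer study. The 6 genes were chosen by name, with their scramble and sh4 values in these same tables known, so the values below describe them and test nothing about them. All 6 were among the 20188 genes listed in the tumor table and among the 50667 Ensembl genes of the cell table. In tumors all 6 passed the filter on low values, a mean across libraries of 0.1 or more, which left 13487 genes, and in cells 5 of 6 passed among 21106 genes, Ly6d being the member left out.

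All libraries come from Mvt1, a mammary carcinoma line that arose in an FVB mouse carrying MMTV-driven Myc and Vegf transgenes. The line had been transduced with a scramble shRNA (scr) or with sh4, an shRNA against Rnaseh2c, which encodes a subunit of the RNase H2 enzyme, and both lines were kept under puromycin. The 3 scr and 3 sh4 tumor libraries measured mRNA of small sections of primary tumors, taken 30 days after injection into a mammary fat pad of female FVB/nJ mice of about 6 weeks of age. Each of 3 experiments gave 1 scr and 1 sh4 tumor. The mice were immune competent, so a tumor section holds host cells beside Mvt1 cells, and fewer cells of a type cannot be told apart from less RNA per cell. The 3 scr and 3 sh4 cell libraries measured total RNA of the cultured lines on 3 plates each, and plates of 1 line are not separate lines. Exomes of 8 lung metastases belong to the same series and were not analysed here.

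Ly6 proteins are small, disulfide-rich proteins of the Ly6/uPAR fold, most of which are tied to the outer face of the plasma membrane by a glycosylphosphatidylinositol (GPI) anchor. Several are standard surface markers: Ly6a is Sca-1, used to mark stem and progenitor cells and inducible by interferon, and the Ly6C antigen made from Ly6c1 and Ly6c2 marks inflammatory monocytes and is also carried by endothelium and by subsets of T cells. Ly6d is found on keratinocytes and on cells entering the B lineage, and Ly6e is an interferon-inducible protein known for modifying virus entry. Ly6i is a less studied relative of Ly6a. As GPI-anchored proteins these antigens lack a cytoplasmic domain, and RNA levels do not say how much protein reaches the surface.

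The 6 genes lay within 349.6 kb of chromosome 15, at chr15:74592486-74942114 of mm9, in the order Ly6d, Ly6e, Ly6i, Ly6a, Ly6c1 and Ly6c2. Of the 6, 5 were annotated on the minus strand and Ly6e on the plus strand. GENCODE vM1 placed 13 genes in the interval. The 7 that were no members included 6 protein-coding genes, namely Ly6k, Gml, Hemt1, Cyp11b1, Cyp11b2 and 2010109I03Rik. Gml, Hemt1 and the steroid hydroxylase genes Cyp11b1 and Cyp11b2 were listed at 0 in every tumor and cell library, so abundant members shared the interval with genes that had no value above 0.

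Because RNA reads are counted by gene, the likeness of the members' sequences bears on how well their values can be kept apart. The coding sequences of Ly6c1 and Ly6c2 had 97.73% identity, with 9 differences over 396 bases, in the GENCODE vM1 transcripts. The first 120 coding bases hold 6 of these differences and are shown because reads over them can tell the pair apart, with the differing bases in capitals.
Ly6c1: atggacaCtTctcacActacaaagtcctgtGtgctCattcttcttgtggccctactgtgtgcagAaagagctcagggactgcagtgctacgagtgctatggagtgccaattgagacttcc
Ly6c2: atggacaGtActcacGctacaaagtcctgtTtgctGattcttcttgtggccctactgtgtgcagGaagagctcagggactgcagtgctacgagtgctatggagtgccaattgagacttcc
The next stretch is the longest that the pair has in common, coding bases 66 to 253, and a read that lies within its 188 bases fits both genes.
Ly6c1 and Ly6c2: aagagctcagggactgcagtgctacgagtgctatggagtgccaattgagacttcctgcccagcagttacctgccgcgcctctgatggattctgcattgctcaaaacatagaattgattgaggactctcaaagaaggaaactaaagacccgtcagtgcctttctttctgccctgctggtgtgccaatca
Ly6a and Ly6i, whose coding sequences were 86.42% identical, had in common at most 80 bases in a row, coding bases 50 to 129.
Ly6a and Ly6i: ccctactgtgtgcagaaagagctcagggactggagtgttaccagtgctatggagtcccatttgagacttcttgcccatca

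Whole transcripts were compared with the protein-coding transcripts of GENCODE vM1 only. There, 31.9% of the 50-base windows of Ly6c1 and 34.1% of those of Ly6c2 were found in another gene, nearly always the other of the pair. At 100 bases the shares were 15.4% and 16.4%. For Ly6a 4.42% and for Ly6i 3.76% of the 50-base windows were found elsewhere, mostly in each other, and 0 of their 100-base windows were. Ly6d and Ly6e shared no window of either length, and their coding sequences were 45.73% to 52.24% identical to those of the others. How the authors' counting treated reads that fit more than 1 gene is not given in the sources used here. The values of Ly6c1 and Ly6c2, their split and their sum alike, are therefore uncertain. A share of windows does not give the size of this uncertainty. It can weigh more on Ly6c2, the lower of the pair, since reads of Ly6c1 could be counted for it. Ly6d and Ly6e had no shared window. The reference is that of C57BL/6J, whereas Mvt1 and its hosts are FVB.

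RefSeq (GRCm38.p6) promoter windows, from 250 bases before to 50 bases after a transcript start, were at hand for 2 of 6 members, Ly6c1 and Ly6c2. The other 4 members were Ly6a, Ly6d, Ly6e and Ly6i. The windows of the first listed start are shown because the pair had nearly the same coding sequence and yet different levels, with a TATAAA match in capitals. They lie on the minus strand at chr15:75048788-75049087 for Ly6c1 and chr15:75111922-75112221 for Ly6c2.
Ly6c1 promoter: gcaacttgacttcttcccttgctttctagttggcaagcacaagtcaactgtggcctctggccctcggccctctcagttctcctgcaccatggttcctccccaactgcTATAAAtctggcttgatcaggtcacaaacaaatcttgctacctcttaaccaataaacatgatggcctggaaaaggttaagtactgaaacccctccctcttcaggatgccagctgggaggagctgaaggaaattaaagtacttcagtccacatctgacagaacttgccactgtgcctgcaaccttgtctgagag
Ly6c2 promoter: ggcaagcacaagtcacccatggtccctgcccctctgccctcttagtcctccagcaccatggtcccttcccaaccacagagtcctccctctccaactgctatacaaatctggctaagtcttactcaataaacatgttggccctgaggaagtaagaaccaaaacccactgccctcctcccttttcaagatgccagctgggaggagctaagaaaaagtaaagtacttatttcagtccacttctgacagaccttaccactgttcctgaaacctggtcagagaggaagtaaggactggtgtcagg
The 2 windows were 62.28% identical over 334 aligned columns, gaps included, and 78.2% identical over the 266 columns in which both had a base, with a longest common run of 20 bases. A pair of response elements of interferon signaling was searched on both strands, the GAS element (TTCNNNGAA) and the core of the interferon-stimulated response element (ISRE core), neither overlapping the other in these windows. Neither had a match in any Ly6c1 or Ly6c2 window, while 8.30% and 3.44% of all 32851 RefSeq promoter windows held one. TATAAA, present in 13.6% of all windows, occurred once, in the Ly6c1 window shown, at position -143 from its start. The window of the other listed Ly6c1 start held no match. Whether the match acts as a TATA box was not tested. A match or its absence describes these letters and these windows only.

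As a check of the labels, Rnaseh2c was at 26.9, 52.0 and 25.9 RPKM (reads scaled to transcript length and library size) in scr tumors and at 10.2, 22.4 and 19.8 RPKM in sh4 tumors, so the groups did not overlap. In cells it was at 5.83, 7.06 and 5.34 FPKM (the same unit per fragment) with scr and at 3.19, 5.36 and 4.28 FPKM with sh4. Only sh4 plate 2 reached the range of scr. The difference was -0.98 (SE 0.37) in tumors and -0.48 (SE 0.18) in cells on the log2(value + 0.5) scale, and neither passed limma at an adjusted p under 0.05. The read number of each library is unknown, so precision was judged from the spread between libraries.

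In tumors the members ran from among the most abundant genes to the lower part of the range, with 29.6% of tested genes below the lowest member, Ly6i. Ly6e, Ly6a and Ly6c1 together made up 95.4% to 97.2% of the summed RPKM of the 6 members in each tumor, and by mean RPKM they ranked 132, 197 and 278 among the 13487 genes tested. Ly6c2 ranked 1723, Ly6d 6502 and Ly6i 9499. The order Ly6e, Ly6a, Ly6c1, Ly6c2, Ly6d, Ly6i held within each tumor, although the scr values of Ly6a and Ly6c1 overlapped between tumors. The summed RPKM of the members was 985 ± 21.5 in scr and 949 ± 97.4 in sh4 tumors (SD, n = 3), a difference smaller than the spread of the sh4 tumors.

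**Figure D1:**
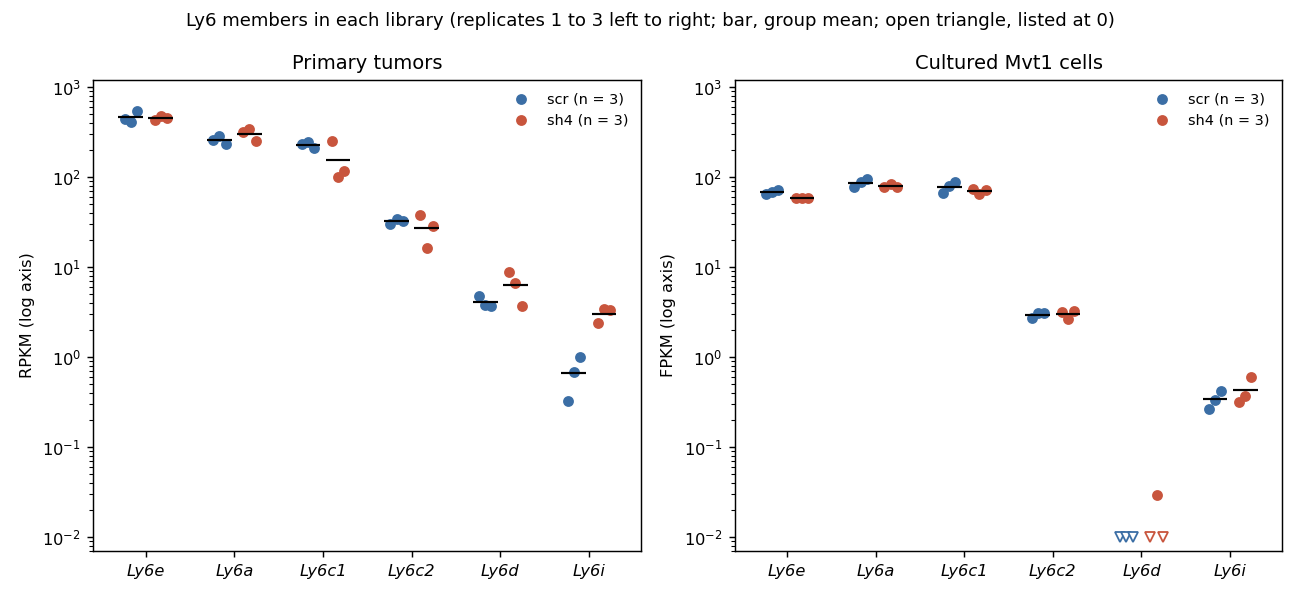
RPKM of the 6 Ly6 members in 3 scr and 3 sh4 tumors (left) and FPKM in 3 scr and 3 sh4 cell plates (right), on log axes, 1 point per library with replicates 1 to 3 from left to right, a bar at the mean of each group without zeros and open triangles for libraries listed at 0. Ly6i in tumors is the only member whose sh4 points all lie above the scr points, Ly6c1 is split within the sh4 tumors, and Ly6d is at or near 0 in cells.

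Ly6i, the lowest member in tumors, had the widest gap between the groups. It was at 0.322, 0.674 and 0.995 RPKM in scr and at 2.37, 3.40 and 3.31 RPKM in sh4 tumors. Every sh4 tumor was above every scr tumor, and the lowest sh4 value, 2.37 RPKM, lay well above the highest scr value, 0.995 RPKM. The means were 0.664 ± 0.336 and 3.03 ± 0.571 RPKM (SD, n = 3), 4.56 times as high in sh4, and the log2 difference was 1.63 (SE 0.27). Within the 3 experiments the log2 difference was 1.80, 1.73 and 1.35. Since the values are low, the size moved with the constant added before the logarithm, to 2.12 with 0.1. Among all tested genes, 4.19% had all sh4 tumors above all scr tumors and 4.98% all below, and Ly6i, 1 of 6 members, was the only one with no overlap in either direction. As the contrast had been used to choose the genes, that count is a description.

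The genes whose values ran most like Ly6i over the 6 tumors, by the root mean square difference of log2 deviations from each gene's own mean, were Cd8b1 (0.21), Pdcd1 (0.28), Cd8a (0.29) and Gimap3 (0.32). Ly6i itself deviated by 0.86 on this measure. Cd8a and Cd8b1 encode the chains of the CD8 co-receptor of cytotoxic T cells, Pdcd1 the checkpoint receptor PD-1, and Gimap3 a GTPase of lymphocytes. Cd8b1 was at 0.931, 1.59 and 3.16 RPKM in scr and at 3.96, 6.29 and 7.02 RPKM in sh4 tumors. As with Ly6i, scr tumor 1 was the lowest of scr and sh4 tumor 1 the lowest of sh4. The likeness is over 6 libraries in which both groups differ, and many genes that differ between the groups would be near.

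The T cell list is given beside Ly6i because the genes nearest to Ly6i belong to T cells. Cd8a and Cd8b1 are among both, so the values of the list partly repeat that choice. Of 17 T cell genes tested in tumors, 15 were higher and 2 lower in sh4, with a median log2 difference of 0.87 against -0.04 over all genes tested, and their summed RPKM was 86.8 to 109 in scr and 130 to 158 in sh4 tumors. Within scr the sum was highest in scr tumor 1, at 109 RPKM, of which Thy1, also on the fibroblast list, made up 64.3 RPKM. Averaged over the 17 genes, the log2 deviation from each gene's own mean was -0.38, -0.60 and -0.10 in scr tumors 1 to 3. In sh4 tumors 1 to 3 it was 0.30, 0.38 and 0.41. By this average scr tumor 3 was the highest of scr and sh4 tumor 1 the lowest of sh4, as for Ly6i. Unlike for Ly6i, scr tumor 2 was the lowest of scr and sh4 tumor 3 the highest of sh4. Ly6i was lowest in scr tumor 1 and highest in sh4 tumor 2. None of the 17 was called by limma, and 10 were at an unadjusted p under 0.05, all of them higher. Of 30 genes of the interferon γ response, 25 were higher and 5 lower (median 0.50), 14 at an unadjusted p under 0.05, all higher, and 0 called. Among all 13487 genes tested in tumors, 42.6% were higher in sh4. At such a p 291 were higher and 273 lower. The part of T cells or of interferon γ in the Ly6i values was not tested.

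In cultured cells, grown without host tissue, Ly6i was at 0.265, 0.334 and 0.414 FPKM with scr and at 0.314, 0.364 and 0.595 FPKM with sh4. These values overlapped, and the log2 difference was 0.13 (SE 0.14). Of the 17 T cell genes, 6 were at 0 in every cell library, among them Cd3d, Cd3e and Cd3g, and 4 passed the filter, among them Cd247 at 1.17 to 1.63 FPKM. Of the genes nearest to Ly6i in tumors, Gimap3 was at 0 throughout, and Cd8b1 was at 0 in 5, Pdcd1 in 4 and Cd8a in 3 of 6 cell libraries.

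**Figure D2:**
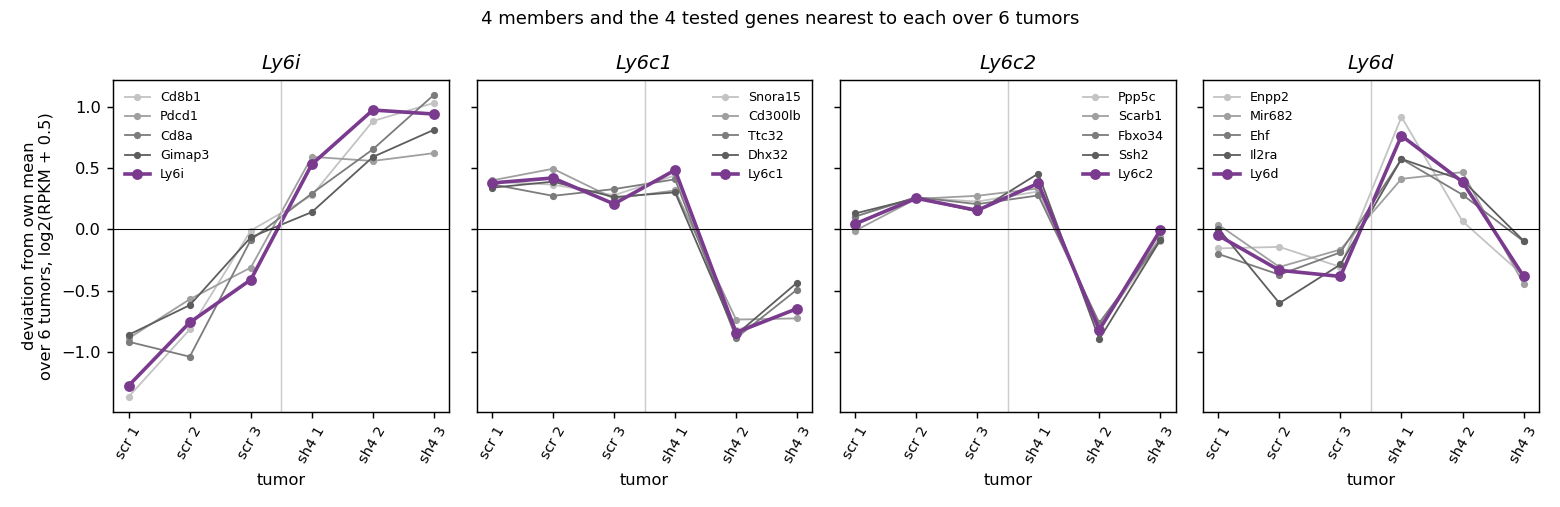
Deviation of each gene from its own mean over 6 tumors, in log2(RPKM + 0.5), for Ly6i, Ly6c1, Ly6c2 and Ly6d (purple) and for the 4 tested genes nearest to each (grey); lines join the values of 1 gene and imply no order of tumors. Ly6i and its neighbors separate scr from sh4, whereas Ly6c1 is low in sh4 tumors 2 and 3 and Ly6c2 in sh4 tumor 2.

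Ly6c1 showed another pattern, a split inside the sh4 group. It was at 234, 241 and 208 RPKM in scr tumors and at 252, 100.4 and 115 RPKM in sh4 tumors. The first sh4 tumor was the highest of all 6, and the other 2 were below every scr tumor. The log2 difference between the groups was -0.67 (SE 0.33), and it ranged from -1.08 without sh4 tumor 1 to -0.42 without sh4 tumor 2. Within experiments it was 0.11, -1.26 and -0.85. The SD of the log2 values was 0.11 in scr and 0.71 in sh4 tumors, and 6.53% of tested genes had a larger SD in sh4 tumors.

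Ly6c2 was at 29.6, 34.3 and 32.0 RPKM in scr and at 37.4, 16.0 and 28.6 RPKM in sh4 tumors. Here again sh4 tumor 1 was the highest and sh4 tumor 2 the lowest of all. Since the pair shares sequence, reads of Ly6c1 counted for Ly6c2 could give the same order, which was not tested. For Ly6c2 the log2 difference was -0.30 (SE 0.29), and without sh4 tumor 2 it was 0.03, so its sign rested on that tumor. Within experiments it was 0.33, -1.07 and -0.16.

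The genes nearest to Ly6c1 over the 6 tumors were Snora15, a small nucleolar RNA, at a root mean square difference of 0.04, the myeloid receptor gene Cd300lb (0.09), Ttc32 (0.11) and Dhx32 (0.12), against 0.54 for Ly6c1's own deviation. Cd300lb was at 2.91, 3.14 and 2.58 RPKM in scr and at 2.72, 1.05 and 1.06 RPKM in sh4 tumors. Nearest to Ly6c2 were Ppp5c (0.06), Scarb1 (0.06), Fbxo34 (0.07) and Ssh2 (0.07), against 0.39 for Ly6c2. These lists hold genes of unlike function, and the same tumors set all of them.

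Having both sh4 tumors 2 and 3 below the other 4 tumors, as Ly6c1 did, was seen in 3 of 9 monocyte genes and 7 of 12 macrophage genes tested, and in 19.2% of all tested genes. This count was made with the values seen. Ccr2, the chemokine receptor that marks Ly6C-high monocytes, was at 22.3, 14.5 and 21.5 RPKM in scr and at 25.3, 8.43 and 12.4 RPKM in sh4 tumors. Itgam, which encodes CD11b, was at 10.0, 7.80 and 8.73 RPKM in scr and at 10.3, 2.30 and 5.13 RPKM in sh4 tumors. For both genes sh4 tumor 1 was the highest tumor and sh4 tumors 2 and 3 the lowest. Other genes of the lists ran otherwise in sh4 tumors 1 to 3, with Cx3cr1 at 7.67, 16.8 and 15.9 RPKM and the complement gene C1qa at 513, 857 and 672 RPKM. Averaged over the 9 monocyte genes tested, the deviation from each gene's mean was 0.32, -0.50 and -0.22 in sh4 tumors 1 to 3, and over 12 macrophage genes 0.28, -0.38 and -0.22. In scr tumors these averages were -0.27, 0.39 and 0.29 for monocyte genes and 0.18, 0.06 and 0.08 for macrophage genes. Between the groups the lists had 5 of 9 monocyte genes higher and 4 lower (summed RPKM 194 to 1031 in scr and 185 to 329 in sh4) and 3 of 12 macrophage genes higher and 9 lower (2796 to 3402 and 2759 to 3116), none called. The high end of the monocyte sum was set by Hp, at 842 RPKM in scr tumor 2. The part of these cells in the Ly6c1 and Ly6c2 values was not tested.

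Endothelium, which also carries Ly6C, had another pattern over the sh4 tumors. Of its 14 markers 13 were higher and 1 lower in sh4 tumors (median 0.44, summed RPKM 51.4 to 55.6 in scr and 62.1 to 94.3 in sh4), with an average deviation of 0.45, -0.12 and 0.42 in sh4 tumors 1 to 3. Sh4 tumor 3, where Ly6c1 was low, was among the higher tumors for endothelial genes. The part of endothelium in the Ly6c1 and Ly6c2 values was not tested.

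In cells Ly6c1 was at 65.6, 79.6 and 88.6 FPKM with scr and at 72.9, 65.2 and 71.2 FPKM with sh4. Ly6c2 was at 2.68, 3.04 and 3.11 FPKM with scr and at 3.16, 2.67 and 3.22 FPKM with sh4. Both genes overlapped between the groups, with log2 differences of -0.15 (SE 0.12) and 0.03 (SE 0.09). By mean FPKM Ly6c1 ranked 508 of the 21106 genes tested in cells. Of the 10 monocyte genes 1, Ccr2, was at 0 in every cell library and 3 passed the filter, among them Spn at 8.47 to 14.01 FPKM.

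The balance of the pair set tumors and cells apart. Ly6c1 was 7.92, 7.03 and 6.50 times as high as Ly6c2 in scr tumors and 6.75, 6.26 and 4.03 times in sh4 tumors. In cells the ratio lay between 22.1 and 28.5 in all 6 libraries. No tumor came near the range of the cells. A ratio of genes in 1 library does not depend on the scaling of the library, but the tables were made with different library types, annotations and programs, and reads common to the pair could be split differently in each, so the ratios stand side by side without a test.

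**Figure D3:**
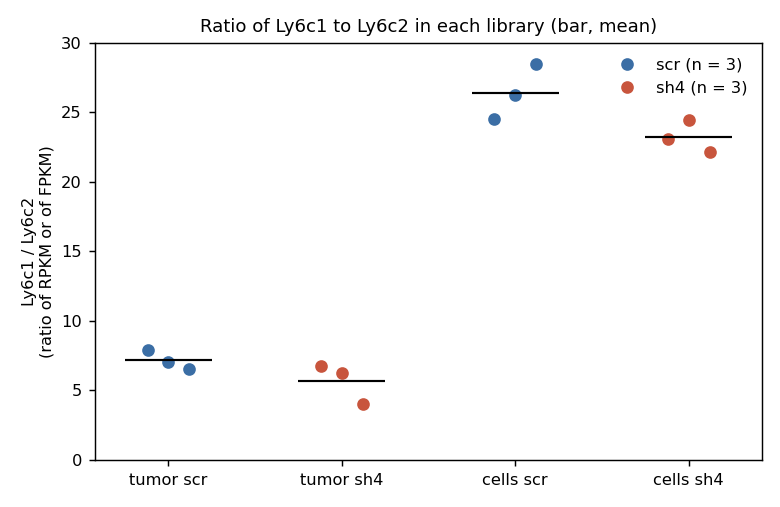
Ratio of Ly6c1 to Ly6c2 in each library, from RPKM in tumors and from FPKM in cells, with 3 libraries per group as points and the group mean as a bar, on an axis from 0. The 6 tumors lie between 4.03 and 7.92 and the 6 cell libraries between 22.1 and 28.5.

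Ly6a, the Sca-1 gene, was at 256, 288 and 230 RPKM in scr tumors and at 315, 343 and 248 RPKM in sh4 tumors. The groups overlapped, although the sh4 tumor was the higher in each of the 3 experiments, by 0.30, 0.25 and 0.11. The log2 difference was 0.22 (SE 0.19). In cells Ly6a was at 76.4, 87.9 and 94.7 FPKM with scr and at 77.3, 83.6 and 77.2 FPKM with sh4, again overlapping, with a log2 difference of -0.12 (SE 0.09).

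Ly6a and Ly6c1 had almost equal levels wherever Ly6c1 was not low. The ratio of Ly6a to Ly6c1 was 1.06 to 1.28 in the 6 cell libraries, 1.09, 1.19 and 1.10 in scr tumors and 1.25 in sh4 tumor 1. In sh4 tumors 2 and 3 it was 3.41 and 2.16. Ly6a was at its highest in sh4 tumor 2, where Ly6c1 was at its lowest, so the split of the sh4 tumors did not extend to the neighboring Ly6a. Of the other stem and progenitor surface markers, 2 of 9 tested were higher and 7 lower in sh4 tumors (median -0.15), none called, and their average deviation in sh4 tumors 1 to 3 was 0.36, -0.41 and -0.13.

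Ly6e, the most abundant member in tumors, was at 444, 409 and 535 RPKM in scr and at 434, 475 and 456 RPKM in sh4 tumors. The sh4 values lay inside the scr range. The log2 difference was -0.02 (SE 0.17), and its sign changed to 0.06 after quantile normalization and to 0.04 after median-ratio scaling, so no direction can be given. The sh4 tumors were close to each other, with a log2 SD of 0.07, and 95.4% of tested genes had a larger SD in these tumors.

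In cells Ly6e was the one member whose groups did not overlap. It was at 63.9, 68.4 and 70.8 FPKM with scr and at 58.0, 58.8 and 57.5 FPKM with sh4. All sh4 plates were below all scr plates, with means of 67.7 ± 3.48 and 58.1 ± 0.665 FPKM (SD, n = 3), and the log2 difference was -0.22 (SE 0.06). Of all genes tested in cells, 13.8% had all sh4 plates below all scr plates and 13.6% all above, so 1 of 5 members is near this background. Whether the difference in cells differs from that in tumors was not tested.

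Limma called 0 of 6 members in tumors, where 0% of all tested genes were called, and 291 genes were higher and 273 lower at an unadjusted p under 0.05, Ly6i being the only member among them. In cells it called 0 of 5 members, beside 0.521% of genes called higher and 0.758% called lower, that is 110 and 160 genes, and Ly6e alone was at an unadjusted p under 0.05. At that level 2016 of the 21106 genes tested in cells were higher and 1970 lower. After median-ratio scaling the cell calls were 552 higher and 493 lower, and there and after quantile normalization Ly6e was among the genes called lower. Leaving out any plate except scr plate 1 left 1 to 9 genes called higher and 1 to 11 lower. The median log2 difference was 0.10 over the 6 members in tumors and -0.12 over the 5 in cells, beside -0.04 and -0.0022 over all genes tested.

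Ly6d was measured in every tumor but in only 1 cell library. It was at 4.75, 3.81 and 3.66 RPKM in scr and at 8.72, 6.60 and 3.67 RPKM in sh4 tumors. Sh4 tumors 1 and 2 were above all scr tumors, and sh4 tumor 3 was at the scr level. The log2 difference was 0.51 (SE 0.31), with 0.81, 0.72 and 0.0017 in the 3 experiments, moving to 0.26 when sh4 tumor 1 was left out and to 0.83 when sh4 tumor 3 was. In cells Ly6d was listed at 0 in 5 of 6 libraries and at 0.029 FPKM in sh4 plate 2. Of 12 housekeeping genes, 0 were at 0 in any cell library.

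The genes nearest to Ly6d over the tumors were Enpp2 (0.17), Mir682 (0.18), Ehf (0.18) and Il2ra (0.18), against 0.44 for Ly6d's own deviation. Ehf is an epithelial transcription factor gene and Il2ra the α chain of the interleukin 2 receptor. Il2ra was at 0 in every cell library and Ehf in 5 of 6, as was Ly6d. The nearer Enpp2 and Mir682 were above 0 in every cell library, at 0.590 to 0.696 FPKM and 103 to 130 FPKM. Of 15 basal and squamous epithelial markers 7 were tested in tumors, with 5 higher and 2 lower in sh4 (median 0.26, summed RPKM 2.78 to 4.81 in scr and 3.96 to 5.47 in sh4). Of the B and plasma cell markers 4 were tested, with 3 higher and 1 lower (median 0.35, summed RPKM 2.30 to 3.67 and 3.73 to 5.85). None of either list was called. Their part in the Ly6d values was not tested.

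Set beside the scr cells, every member had the higher value in the scr tumors, on scales that are not shared. Ly6c2 was 10.9 times as high in RPKM as in FPKM, Ly6e 6.83 times, Ly6a 2.98 times, Ly6c1 2.92 times and Ly6i 1.97 times, while Ly6d was at 4.07 RPKM against 0. In cells the order of the 3 abundant members was Ly6a, Ly6c1, Ly6e within each library, with values that overlapped between libraries. Ly6e led in all 6 tumors. The ratio of Ly6e to Ly6a was 1.38 to 2.33 in tumors and 0.704 to 0.837 in cells.

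Of 39 other genes of the Ly6/uPAR family, 27 were in the tumor table and 14 were tested. In tumors 8 of these were higher and 6 lower in sh4, with a median of 0.24, and 0 were called by limma. At an unadjusted p under 0.05 were 2 higher (Gpihbp1 and Ly6g6d) and 1 lower (Slurp1). Among all 13487 genes tested in tumors, 291 were higher and 273 lower at such a p. Of the 28 listed in cells, 11 were tested, 7 higher and 4 lower, with a median of 0.06, 0 called, and Lypd3 alone at an unadjusted p under 0.05. Among all 21106 genes tested in cells, 2016 were higher and 1970 lower at such a p. Of the tested relatives, all sh4 values were above all scr values for 2 of 14 in tumors (Gpihbp1 and Pate2), beside 4.19% of all tested genes, and for 4 of 11 in cells (Ly6g5b, Lynx1, Lypd3 and Slurp1), beside 13.6%. For none of those tested were they all below. Psca, under the filter in cells, also had all sh4 values above all scr values there.

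Gpihbp1, the protein that carries lipoprotein lipase to the capillary lumen, was at 4.94, 7.28 and 5.34 RPKM in scr and at 12.80, 9.75 and 12.97 RPKM in sh4 tumors. Its sh4 tumors were all above its scr tumors, with a log2 difference of 0.97 (SE 0.22), which missed the threshold (limma adjusted p = 0.991). It was at 0 in every cell library. Of the 14 endothelial genes 4 were at 0 there too, and 4 passed the filter, among them Egfl7 at 4.94 to 12.9 FPKM. Among tumors, sh4 tumor 2 was the lowest sh4 tumor for Gpihbp1, as for the sum and the average of the endothelial markers. Single markers did not all run so, with Cldn5, Vwf and Egfl7 lowest in sh4 tumor 1. Plaur, the urokinase receptor and the most abundant of these relatives in tumors and cells, was at 20.1, 33.4 and 26.2 RPKM in scr and at 19.0, 15.5 and 21.2 RPKM in sh4 tumors. Its groups overlapped in the tumors (log2 difference -0.49, SE 0.23, limma adjusted p = 0.995) and in cells, where it lay between 18.2 and 23.9 FPKM.

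**Figure D4:**
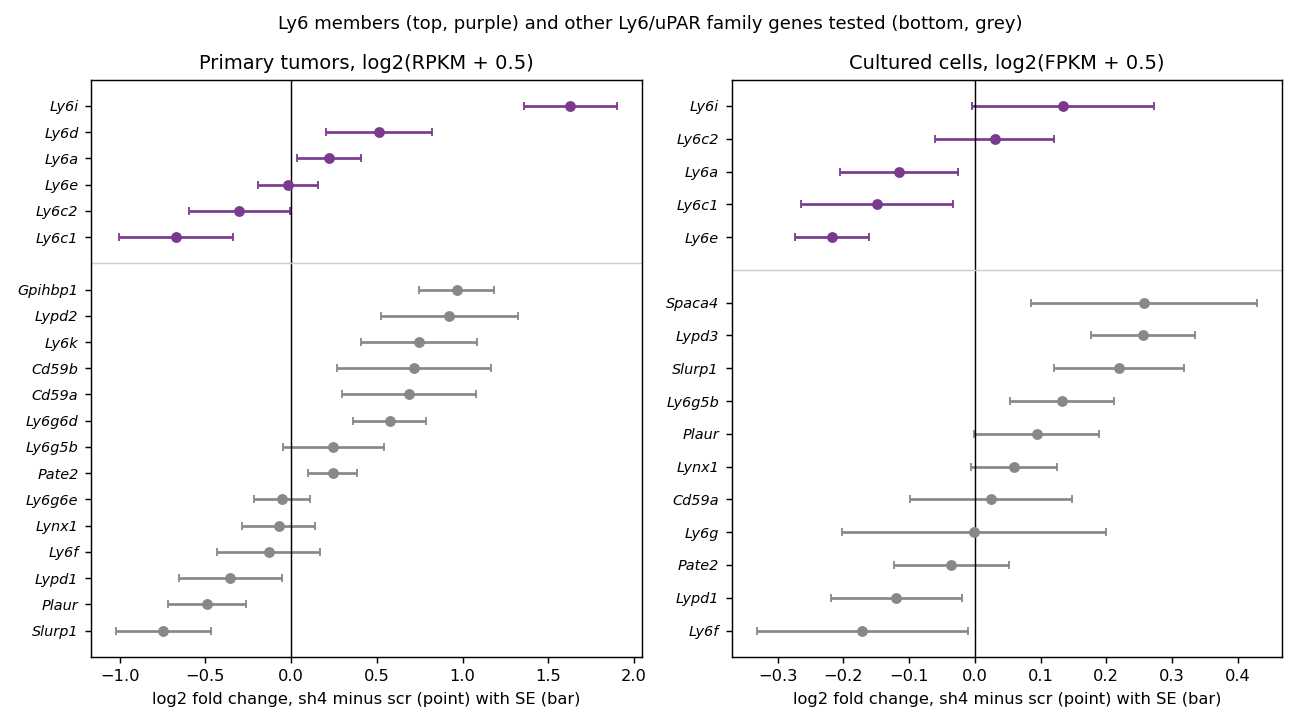
Log2 difference between sh4 and scr (points, with the standard error as a bar) for the Ly6 members (top, purple) and the other tested Ly6/uPAR genes (bottom, grey), in tumors on the left and in cells on the right, with different axis ranges. In tumors Ly6i lies farthest to the right at 1.63 and Slurp1 farthest to the left at -0.74, and in cells all values lie between -0.22 and 0.26.

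Ly6k, the family gene inside the member interval, was at 0.849, 0.425 and 0.788 RPKM in scr and at 2.58, 1.46 and 0.759 RPKM in sh4 tumors. As for its neighbor Ly6d, sh4 tumors 1 and 2 were above all scr tumors and sh4 tumor 3 was in the scr range (log2 difference 0.75, SE 0.34, limma adjusted p = 0.995). Ly6k was also at 0 in 5 of 6 cell libraries. Gm17189 overlaps Ly6k on the other strand, and without a stated strand setting reads of the pair cannot be told apart.

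The machinery that attaches the GPI anchor was expressed in both tables. Of 26 GPI anchor assembly genes tested in tumors 8 were higher and 18 lower in sh4, with a median of -0.10 and 0 at an unadjusted p under 0.05. Of 28 in cells 11 were higher and 17 lower, with a median of -0.09, 2 higher and 6 lower at an unadjusted p under 0.05 and 0 called by limma. Of all 21106 genes tested in cells, 2016 were higher and 1970 lower at such a p. Pgap2, which acts on the lipid of the anchor after its attachment, had means of 2.87 ± 0.146 FPKM with scr and 2.25 ± 0.0537 FPKM with sh4 (SD, n = 3), with no overlap (log2 difference -0.29, limma adjusted p = 0.0871).

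Interferons are known inducers of Ly6a and Ly6e, and genes of both response lists were measured in each table. Of 24 type I interferon response genes in tumors 17 were higher and 7 lower (median 0.15), with 0 at an unadjusted p under 0.05 and 0 called. In cells 22 were tested, 12 higher and 10 lower (median 0.04), and limma called Ifit1 and Rsad2 higher and Oasl2 lower. Of 24 interferon γ response genes tested in cells 9 were higher and 15 lower (median -0.09), with Gbp2 called lower at 16.9, 18.0 and 18.9 FPKM against 12.3, 12.9 and 11.7 FPKM (log2 difference -0.52, limma adjusted p = 0.0311). Ly6e and Gbp2 were both lower in all sh4 plates, and Ifit1 and Rsad2 higher. Of the alternatives to the fit, Gbp2 and Ifit1 were called in 7 of 14, Oasl2 in 5 of 14 and Rsad2 in 5 of 13, and none of the 4 was called when any plate except scr plate 1 was left out.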

How the data were processed

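Scr was compared with sh4 in each of 2 tables, tumor mRNA and cell total RNA, with 3 libraries per group. The tumor values are RPKM that the authors deposited after trimming, Tophat alignment to mm9 with Ensembl v70 and Partek analysis. The cell values are FPKM that the authors deposited for Ensembl genes and assembled loci; their notes list STAR 2.7 and TopHat2 2.1.0 without roles. Among the cell rows, 239874 assembled loci were left out, and GENCODE vM1 named 32709 of 50667 genes.

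Each table was fitted alone with limma 3.58.1 (R 4.3.3) on log2(value + 0.5), with a variance trend, a mean of at least 0.1 and Benjamini-Hochberg adjustment over all genes, calling an adjusted p under 0.05. The fit was also run on simulated data, with normal log2 values drawn independently for each gene. That run does not cover differences that many genes of a tumor share. Members, gene lists and tests were chosen with earlier results of these data known. The text names the members, the family and list genes with the highest means or smallest p, and the 4 nearest genes of members spanning over 1 in log2. Further list genes (Hp, Pgap2, Itgam, Cx3cr1, Spn, Egfl7, Gbp2, Ccl17, Psca and the genes at 0 in cells) were picked with their values seen. Tumors of 1 number share an experiment by their labels (correlations 0.138, 0.330 and -0.117). For plates of 1 number the labels do not say so, and they were treated as unpaired. Whether RNA of 1 group came from separate cultures is not stated, so the spread between plates may be technical.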

Additional observations from a re-analysis of the deposited data

How the results depend on the processing

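In tumors the calls stayed at 0 under every alternative but 1, since without a filter on low values 6 genes were called higher and 1 lower. No member was called in tumors under any of 14 alternatives. Ly6i, Ly6a and Ly6d kept a positive and Ly6c1 a negative log2 difference in all 14 (Ly6i 1.28 to 2.12), and the signs of Ly6c2 and Ly6e were not kept in all. Among the alternatives, a block for replicate number and the fit without the variance trend cannot change a log2 difference. In cells the calls (110 higher, 160 lower) came to 22 and 42 without a filter, 174 and 234 with a mean of at least 1, 545 and 678 after quantile normalization, 552 and 493 after median-ratio scaling and 53 and 118 without the variance trend. Leaving out 1 plate at a time gave 1 to 80 genes higher and 1 to 162 lower, the fewest without scr plate 3. Of the members, 1 (Ly6e, -0.29 and -0.22) was called after quantile normalization and 1 after median-ratio scaling, with an adjusted p of 0.0197 to 0.369 over its alternatives. Members with no overlap in cells came to 3 after quantile normalization (Ly6a, Ly6c1 and Ly6e, all lower in sh4), beside 15.3% of all tested genes lower and 14.7% higher without overlap. With the replicate block the cell calls were 0 higher and 0 lower. The correlation of plates with the same number was -0.061, -0.075 and -0.073. By their labels these plates share only a number, and the correlations cannot show whether they were handled together. With the tumors paired by experiment the block changed no call. With 1 scr and 1 sh4 tumor per experiment it cannot change a log2 difference, so that of Ly6i stayed at 1.63 by design. With the read numbers unknown, low genes such as Ly6i rest on an unknown number of reads, and 3 libraries per group limit every estimate. DESeq2 was not run, since neither table holds counts.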

Other observations

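Of 12 dendritic cell genes tested in tumors 11 were higher and 1 lower in sh4, with a median log2 difference of 0.46 and 0 called by limma. At an unadjusted p under 0.05 were 5 of the 12, beside 291 higher and 273 lower among all 13487 genes tested. The summed RPKM of the dendritic cell genes was 56.5 to 76.0 in scr and 120 to 200 in sh4 tumors, without overlap. Most of that gap came from Ccl17, with a mean of 12.05 RPKM in scr and 63.9 RPKM in sh4. Of 9 adipocyte genes 0 were higher and 9 lower (median -0.86), and their summed RPKM was 39.8 to 1727 in scr and 48.2 to 260 in sh4 tumors, with scr tumor 2 at the top. Neutrophil genes, whose marker antigen Ly6g is a relative of the members, were 3 higher and 5 lower of 8 tested in tumors (median -0.12).

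NK cell genes were 6 higher and 3 lower of 9 (median 0.10), fibroblast genes 5 and 5 of 10 (median 0.08), muscle genes 4 and 4 of 8 (median 0.04), mammary epithelial genes 3 and 5 of 8 (median -0.07), erythroid genes 0 and 3 of 3 (median -1.16) and interferon receptor and STAT genes 6 and 5 of 11 (median 0.02). None of these was called. The summed muscle genes ranged from 6.31 to 127 RPKM in scr tumors alone.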
